A study of Homo sapiens with 6 samples.

Results

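Sialyltransferases add sialic acid to the ends of sugar chains on proteins and lipids, and gangliosides are the sialylated lipids that several of them build. The genes described here were the 10 rows of the count table named ST3GAL1 to ST3GAL6, ST6GAL1, ST8SIA1, ST6GALNAC2 and B4GALNT1, out of 58870 rows in all. They were taken by name, not by their values. All 10 were found and all 10 could be tested. RNA sequencing compared WM164, an established human melanoma cell line, carrying a GFP control (3 libraries) with the same line carrying T-MGM (3 libraries), a construct that joins MAFG and MITF through a flexible linker so that the pair is held together as a dimer. Both inserts were delivered by lentivirus under an EF1α promoter with blasticidin selection, so the control cells had also been infected and selected. The cells were grown in RPMI with 5% serum. Whether the 3 libraries of a group came from separate cultures is not given in the labels, so p-values here measure the spread between these libraries, which may be technical.

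Sialic acid is loaded onto a carrier nucleotide and then transferred in the Golgi, and the enzymes differ in the linkage they make and in the chain they accept. ST3GAL enzymes attach it to galactose in one linkage and ST6GAL1 in another, ST6GALNAC enzymes attach it to the N-acetylgalactosamine at the base of O-linked chains, and ST8SIA enzymes add sialic acid to sialic acid. Gangliosides start from lactosylceramide, which ST3GAL5 converts to GM3. ST8SIA1 turns GM3 into GD3, and B4GALNT1 makes GM2 and GD2. GD3 and GD2 are well known as abundant antigens of melanoma cells.

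Total counts were 35057239 to 38738065 in the GFP libraries and 44577774 to 59250663 in the libraries labelled T-MGM, and no member was near the floor of 3 counts. The transcripts of the 2 joined factors did not set the groups widely apart. MAFG had 2535, 2397 and 2442 normalised counts with GFP and 2396, 2351 and 2327 with T-MGM (log2 fold change -0.06, DESeq2 adjusted p = 0.236), and MITF differed by a log2 fold change of 0.08. The group names are therefore used as labels. The study itself reports that the dimer was expressed in WM164 cells and that it raised AXL. All 6 melanocyte lineage markers were expressed. DCT (log2 fold change -2.49), MLANA (-0.68) and TYR (-0.35) were lower with T-MGM, while SOX10 (0.11), MITF (0.08) and PMEL (0.05) passed as higher on counts although their mean TPM was lower. Of the 4 fibroblast markers 3 were tested and 2 were higher, LUM and COL1A1, while COL1A2 stayed at or under 5 counts and the summed TPM was 3.60 to 4.58 with GFP and 4.40 to 6.10 with T-MGM. Of the 4 epithelial markers KRT8 and KRT18 were expressed and higher (summed TPM 140 to 145 and 163 to 175), while EPCAM and CDH1 were at the floor. The 3 leukocyte markers summed to at most 0.12 TPM and the 2 endothelial markers to at most 0.32 TPM. The part of these differences in the results below was not tested.

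Of the 10 genes, 3 were higher in the libraries labelled T-MGM (ST3GAL1, ST6GALNAC2 and ST3GAL4), 4 were lower (ST6GAL1, ST3GAL6, ST8SIA1 and ST3GAL2) and 3 did not pass the test (ST3GAL3, ST3GAL5 and B4GALNT1), at a DESeq2 adjusted p of 0.05 over 19135 tested genes. Over all tested genes 19.2% were higher and 19.2% lower at that threshold. Among the 11652 tested genes with a mean of at least 100 normalised counts, where all 10 members lie, the shares were 27% and 29.3%, so the split of the members was close to that of other well-measured genes. Past a 2-fold difference lay ST3GAL1 and ST6GALNAC2, both higher, beside 3.26% of all tested genes higher and 1.36% lower. Among the 11652 well-measured genes 214 were past 2-fold higher and 61 lower. The groups did not overlap in 6 of the 10 members, beside 46.8% of all tested genes and 62.7% of the well-measured ones. The median log2 fold change of the members was 0.00, as it was over all tested genes. Without the first T-MGM library, 4 of the 10 passed instead of 7, and the 3 that dropped out were ST3GAL6, ST8SIA1 and ST3GAL2, all lower by small amounts.

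**Figure D1:**
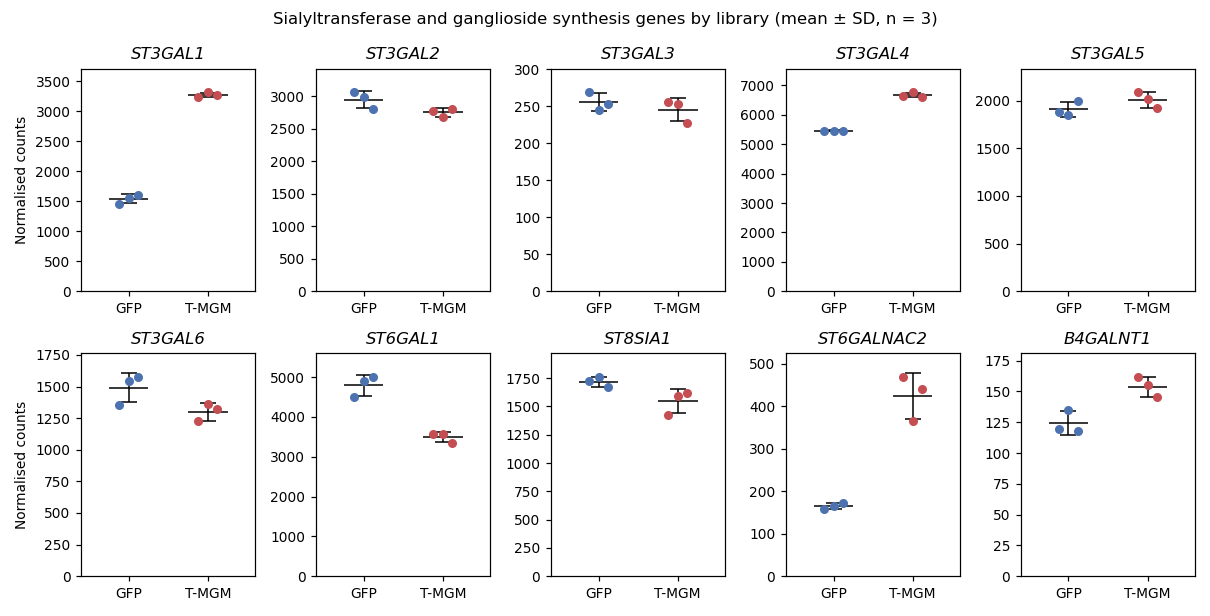
Normalised counts (vertical axes from 0) of the 10 genes in the 3 GFP libraries (blue) and the 3 libraries labelled T-MGM (red). Points are libraries, and lines and bars are the mean and SD (n = 3). ST3GAL1 and ST6GALNAC2 show the widest separation, and ST6GAL1 lies lower in every library labelled T-MGM.

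ST3GAL1, which caps the common core of O-linked chains with sialic acid, had 1463, 1560 and 1606 normalised counts with GFP and 3244, 3315 and 3274 with T-MGM. Every T-MGM library was above every GFP library, and the libraries within a group lay close together. The means were 1543 ± 73.0 (SD, n = 3) and 3278 ± 35.8 (SD, n = 3). The fold change was 2.12 (95% limits 2.01 to 2.24; log2 1.09, SE 0.04; DESeq2 Wald test, Benjamini-Hochberg adjusted p = 4.49e-153). On the TPM scale, which divides by transcript length, levels were 7.25, 5.91 and 7.52 with GFP and 13.4, 13.7 and 12.8 with T-MGM. The direction was the same there, but the fitted difference fell below 2-fold. The gene (ENSG00000008513.16) lies on chromosome 8 at 133454848 to 133571926, minus strand, in GRCh38. Of the 2 genes that start within 1 Mb of it and have a mean of at least 50 normalised counts, NDRG1, a stress-response gene, was also past 2-fold higher (log2 fold change 1.24) while PHF20L1 had -0.06 (DESeq2 adjusted p = 0.108).

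ST3GAL2 works on the same O-linked core and also on gangliosides, and its counts went the other way by a small amount. It had 3060, 2987 and 2803 normalised counts with GFP and 2769, 2681 and 2810 with T-MGM. The groups overlapped, since the third T-MGM library lay just above the lowest GFP library. The log2 fold change was -0.10 (SE 0.04, DESeq2 adjusted p = 0.0277), a call that was lost under 10 alternatives, among them TMM scaling (adjusted p = 0.0557).

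ST6GALNAC2 adds sialic acid to the base sugar of O-linked chains and showed the widest relative difference of the 10. It had 157, 165 and 172 normalised counts with GFP and 468, 365 and 441 with T-MGM. The groups did not overlap, and the second T-MGM library was the lowest of its group. The fold change was 2.58 (95% limits 2.16 to 3.07; log2 1.37, SE 0.13; DESeq2 adjusted p = 5.70e-25). The TPM values were 2.73, 3.24 and 2.69 against 6.29, 5.29 and 7.32, and on log2(TPM + 1) the difference was 0.90, under 2-fold. The gene (ENSG00000070731.10) lies on chromosome 17 at 76565377 to 76586956, minus strand, and 39.8% of its exon bases are shared with another protein-coding gene of that strand, AC015802.6. That gene had 46, 37 and 42 reads with GFP and 132, 83 and 149 with T-MGM (log2 fold change 1.13, DESeq2 adjusted p = 3.11e-05), so part of the signal at this locus could be split between the pair by the counting. Its 39 measured neighbours within 1 Mb had a median log2 fold change of 0.11, and 18 passed as higher and 3 as lower. Over all tested genes 19.2% were higher and 19.2% lower, and among the well-measured ones 27% and 29.3%. The neighbours past 2-fold were AC015802.6 itself, MGAT5B (1.41), which branches sugar chains on mannose, and GALK1 (1.00), which phosphorylates galactose.

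ST3GAL4 caps N-linked chains and the selectin-binding ends of lactosamine chains, and it was the most abundant transcript of the 10 per length. It had 5463, 5461 and 5438 normalised counts with GFP and 6642, 6763 and 6616 with T-MGM. The GFP libraries were nearly equal and all T-MGM libraries lay above them. The fold change was 1.22 (95% limits 1.18 to 1.26; log2 0.29, SE 0.02; DESeq2 adjusted p = 1.85e-31). The TPM values were 69.7, 70.3 and 68.0 with GFP and 77.3, 76.5 and 73.3 with T-MGM, and on log2(TPM + 1) the difference was 0.125 (limma adjusted p = 0.0189). The gene (ENSG00000110080.18) lies on chromosome 11 at 126355640 to 126440344, plus strand, and none of its 13 measured neighbours was past 2-fold.

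ST6GAL1 makes the other main linkage on N-linked chains and was the member with the clearest decrease. It had 4498, 4904 and 4994 normalised counts with GFP and 3566, 3568 and 3343 with T-MGM. All T-MGM libraries were below all GFP libraries. The fold change was 0.73 (95% limits 0.69 to 0.76; log2 -0.46, SE 0.04; DESeq2 adjusted p = 4.62e-34), and the TPM values were 23.3, 27.0 and 26.2 against 16.1, 16.1 and 16.6. The gene (ENSG00000073849.15) lies on chromosome 3 at 186930325 to 187078553, plus strand. Its 12 measured neighbours had a median log2 fold change of -0.10, with the pseudogene NMRAL2P past 2-fold lower (-1.65). The ratio of ST3GAL4 to ST6GAL1 TPM was 2.99, 2.61 and 2.60 with GFP and 4.80, 4.74 and 4.43 with T-MGM. This ratio was chosen after the values of both genes were seen and is given as a description.

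MITF binds the E-boxes CACGTG and CATGTG, and MAFG binds elements that contain TGCTGA. The RefSeq promoter windows of the members (GRCh38.p14, 250 bases before to 50 after a transcript start) were therefore searched on both strands for these letters. They were also searched for TGAGTCA, the AP-1 site of related factors. The study reports the AP-1 motif as the one most enriched where MAFG and MITF both bind. Windows were at hand for ST3GAL3, ST3GAL4, ST3GAL5, ST3GAL6, ST6GAL1 and ST8SIA1, 15 in all, and not for ST3GAL1, ST3GAL2, ST6GALNAC2 and B4GALNT1. Of the 15, 5 held one of the motifs. CACGTG was in 1 window of ST3GAL4 (7.26% of all 35116 windows hold it), CATGTG in 1 window of ST3GAL6 (11.1% of all windows), TGCTGA in another window of ST3GAL6 and in 2 overlapping windows of ST3GAL5 (17.3% of all windows), and TGAGTCA in none (4.95% of all windows). A match describes letters, not a bound site. The 250 bases before the start are printed for the 2 windows with an E-box and for the window of ST6GAL1, the gene with the clearest decrease, which held none of the 4 motifs. The capitals mark the E-box, which lies 51 to 46 bases before the window's start in ST3GAL4 (chr11:126355762-126356011, plus strand). In ST3GAL6 it lies 107 to 102 bases before the window's start (chr3:98763090-98763339, plus strand). These starts and that of ST6GAL1 lie inside the annotated genes. They are 126356012 in ST3GAL4 (gene from 126355640), 98763340 in ST3GAL6 (gene from 98732236) and 186930526 in ST6GAL1 (gene from 186930325). The ST6GAL1 window is chr3:186930276-186930525, plus strand.
ST3GAL4: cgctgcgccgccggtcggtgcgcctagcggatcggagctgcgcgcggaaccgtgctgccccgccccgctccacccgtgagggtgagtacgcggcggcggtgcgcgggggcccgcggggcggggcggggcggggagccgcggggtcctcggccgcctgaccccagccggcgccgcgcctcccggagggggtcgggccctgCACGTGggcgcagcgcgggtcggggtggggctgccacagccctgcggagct
ST3GAL6: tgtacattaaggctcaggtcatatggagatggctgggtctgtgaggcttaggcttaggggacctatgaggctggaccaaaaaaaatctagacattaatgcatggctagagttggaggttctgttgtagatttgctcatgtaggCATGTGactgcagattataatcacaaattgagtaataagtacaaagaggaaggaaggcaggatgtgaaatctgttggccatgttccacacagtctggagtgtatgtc
ST6GAL1: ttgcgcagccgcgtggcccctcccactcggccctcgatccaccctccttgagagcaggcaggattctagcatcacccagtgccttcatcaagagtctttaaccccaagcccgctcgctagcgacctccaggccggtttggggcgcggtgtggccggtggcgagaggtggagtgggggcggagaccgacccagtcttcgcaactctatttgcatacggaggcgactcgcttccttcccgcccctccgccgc
The ST3GAL4 stretch is 82.8% G and C, the ST6GAL1 stretch 65.6% and the ST3GAL6 stretch 43.6%.

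ST3GAL6 acts on lactosamine chains much as ST3GAL4 does, but its counts were slightly lower in the libraries labelled T-MGM. It had 1357, 1542 and 1573 normalised counts with GFP and 1223, 1361 and 1319 with T-MGM. The lowest GFP library fell just below the highest T-MGM library, so the groups overlapped. The log2 fold change was -0.20 (SE 0.06, DESeq2 adjusted p = 0.00297), and it no longer passed without the third GFP library (adjusted p = 0.0592), without the first T-MGM library (adjusted p = 0.0524) or with offsets for GC content and length (adjusted p = 0.137). On log2(TPM + 1) the difference was -0.36. All 8 measured neighbours within 1 Mb had negative log2 fold changes (median -0.21). Of these 8, 5 passed as lower, beside 19.2% of all tested genes and 29.3% of the well-measured ones. One of these neighbours, DCBLD2, overlaps 3.73% of the exon bases of ST3GAL6 on the opposite strand. It was far more abundant, with 12823 to 17857 reads and a log2 fold change of -0.63. The sources name both a non-stranded and a stranded kit, so reads from the shared bases cannot be assigned to a strand with certainty.

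ST3GAL3, which also caps N-linked chains, was the least abundant of the ST3GAL genes. It had 269, 245 and 254 normalised counts with GFP and 255, 253 and 227 with T-MGM. The groups overlapped and the log2 fold change was -0.06 (95% limits -0.30 to 0.18, DESeq2 adjusted p = 0.757). Nearby, TIE1 (log2 fold change 1.77), PTPRF (1.15) and SLC6A9 (2.32) were past 2-fold higher among 27 measured neighbours.

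ST3GAL5, the GM3 synthase at the entry to ganglioside synthesis, did not pass the test. It had 1878, 1848 and 1999 normalised counts with GFP and 2086, 2018 and 1919 with T-MGM. The groups overlapped, with a log2 fold change of 0.07 (95% limits -0.02 to 0.16, DESeq2 adjusted p = 0.234). The sign turned on the TPM scale (-0.10 on log2(TPM + 1), limma adjusted p = 0.385), and the gene passed as higher with offsets for GC content and length (0.12, adjusted p = 0.0262). Of its 22 measured neighbours within 1 Mb, 11 passed as higher and 2 as lower. Over all tested genes 19.2% were higher and 19.2% lower, and among the well-measured ones 27% and 29.3%.

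ST8SIA1, the GD3 synthase, was lower by a small amount. It had 1727, 1757 and 1671 normalised counts with GFP and 1423, 1595 and 1621 with T-MGM. The groups did not overlap, and the first T-MGM library was the lowest. The log2 fold change was -0.15 (SE 0.05, DESeq2 adjusted p = 0.0119), and without that library it was -0.10 (adjusted p = 0.174). It also no longer passed without the second GFP library (adjusted p = 0.0815). With offsets for GC content and length the difference shrank to -0.03 (adjusted p = 0.775), and on log2(TPM + 1) it was -0.39. All 7 measured neighbours within 1 Mb had negative log2 fold changes (median -0.18). Of these 7, 5 passed as lower, beside 19.2% of all tested genes and 29.3% of the well-measured ones.

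B4GALNT1, the GM2 and GD2 synthase, was the least abundant of the 10. It had 120, 135 and 118 normalised counts with GFP and 161, 155 and 145 with T-MGM. Every T-MGM library was above every GFP library, but the log2 fold change of 0.31 (95% limits -0.02 to 0.63) did not pass (DESeq2 adjusted p = 0.144). The TPM values, 0.67, 1.01 and 0.74 against 1.07, 0.86 and 0.78, overlapped. Within 1 Mb, AGAP2 was past 2-fold higher (log2 fold change 1.41) among 32 measured neighbours. The ratio of ST8SIA1 to B4GALNT1 TPM, also chosen after the values were seen, was 27.4, 21.3 and 23.7 with GFP and 12.4, 17.1 and 19.3 with T-MGM.

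**Figure D2:**
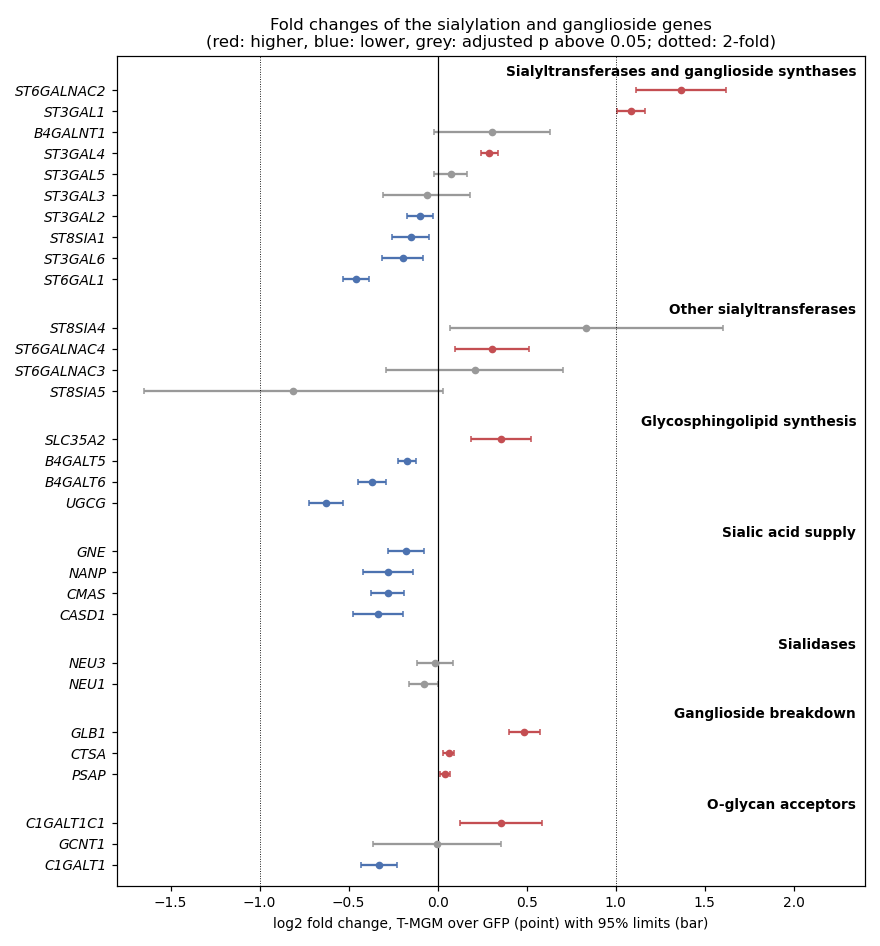
The log2 fold changes of T-MGM over GFP (horizontal axis) with 95% limits, for the 10 genes and for up to 4 genes of each pathway list. Red passed as higher, blue as lower and grey did not pass an adjusted p of 0.05, and dotted lines mark 2-fold. ST6GALNAC2 and ST3GAL1 lie past 2-fold, UGCG is the lowest of the genes that passed, and all 4 named genes of sialic acid supply are lower.

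Compared per length, the levels of the 10 genes spanned from 0.67 TPM to 77.31 TPM over the 6 libraries. ST3GAL4 stood above all others in every library (67.98 to 70.29 TPM with GFP and 73.29 to 77.31 TPM with T-MGM). In the GFP libraries it was followed by ST6GAL1, ST3GAL6, ST8SIA1 and ST3GAL2, each overlapping the range of the gene above it except ST6GAL1, and then by ST3GAL5, ST3GAL1, ST3GAL3, ST6GALNAC2 and B4GALNT1. Of these last 5, only ST6GALNAC2 overlapped the gene above it. In the libraries labelled T-MGM, ST3GAL1 (12.80 to 13.71 TPM) overlapped the range of ST3GAL5 (12.88 to 16.12 TPM), and ST6GALNAC2 (5.29 to 7.32 TPM) lay above ST3GAL3 (1.93 to 2.78 TPM) without overlap.

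The share of ST3GAL1 in the ST3GAL1 to ST3GAL6 TPM sum was 5.65%, 4.33% and 5.69% with GFP and 9.74%, 9.90% and 9.62% with T-MGM. The groups did not overlap, and the mean difference was 4.53 percentage points (2-sided exact permutation test, p = 0.1, the smallest that 3 against 3 libraries allow). With normalised counts per kilobase of annotated exon the difference was 7.64 points. The TPM sum itself was 128.23 to 136.35 with GFP and 133.08 to 138.48 with T-MGM, so the ranges overlapped. ST3GAL4 held 51.5% to 54.3% of the sum with GFP and 55.1% to 56.2% with T-MGM, and the share of ST3GAL6 was 13.6% to 17.4% and 10.9% to 11.7%.

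**Figure D3:**
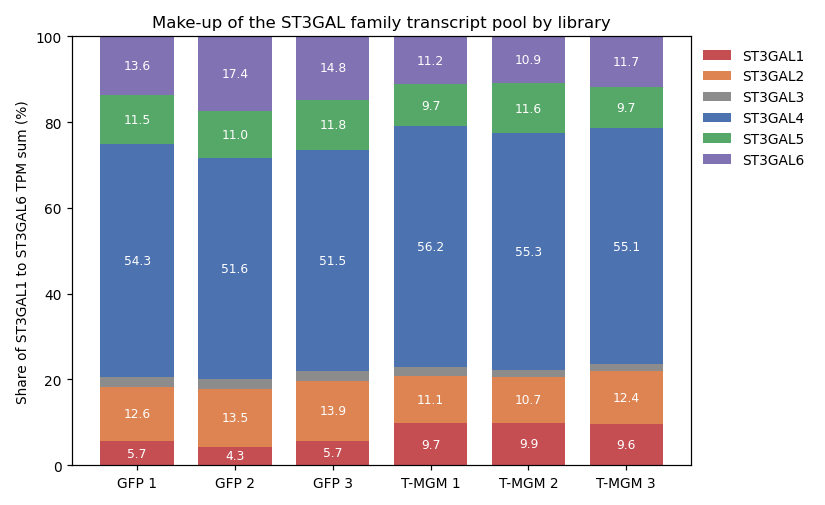
Share in percent (vertical axis, 0 to 100) of each ST3GAL gene in the summed TPM of ST3GAL1 to ST3GAL6, for each of the 6 libraries. The ST3GAL1 share is 4.33% to 5.69% in the GFP libraries and 9.62% to 9.90% in the libraries labelled T-MGM, while ST3GAL4 holds over 51% in all 6.

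The other genes of the pathway were read from 6 lists with 41 genes, of which 34 were tested. Of these 7 were higher, 9 lower and 18 did not pass at a DESeq2 adjusted p of 0.05, none was past 2-fold, and the median log2 fold change was 0.00. Over all tested genes 19.2% were higher and 19.2% lower (27% and 29.3% of the well-measured genes), so the split of the lists was near that of other genes. On the TPM scale with limma, 1 was higher and 12 lower among 26 tested, a scale on which the median of well-measured genes lay at -0.13 against -0.01 for the counts. Among the other sialyltransferases 7 of 11 were tested and 1 passed. This was ST6GALNAC4, which like ST6GALNAC2 acts on O-linked chains (307, 295 and 350 normalised counts with GFP and 380, 411 and 385 with T-MGM, log2 fold change 0.31, DESeq2 adjusted p = 0.0127). Its groups did not overlap, but the call was lost under 8 alternatives. ST8SIA4, a polysialic acid synthase, had a log2 fold change of 0.83 (DESeq2 adjusted p = 0.0805) at under 50 normalised counts, and it passed with offsets for GC content and length (0.992, adjusted p = 0.0323). ST8SIA5, which extends gangliosides, had -0.81 (DESeq2 adjusted p = 0.132), but it passed as lower without the second GFP library (-1.1, adjusted p = 0.0465) and had -0.349 without the third GFP library (adjusted p = 0.666). ST6GALNAC3 had 0.21 (DESeq2 adjusted p = 0.593).

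Of the 8 genes listed for glycosphingolipid synthesis 7 were tested, and 3 were lower and 1 higher. Over all tested genes 19.2% were lower and 19.2% higher, and among the well-measured genes 29.3% and 27%. UGCG, which makes glucosylceramide and so starts nearly all glycosphingolipids, had 1920, 2122 and 2021 normalised counts with GFP and 1295, 1310 and 1321 with T-MGM. All T-MGM libraries were well below the GFP libraries (log2 fold change -0.63, SE 0.05, DESeq2 adjusted p = 5.89e-37). The lactosylceramide synthases B4GALT6 (-0.37, DESeq2 adjusted p = 1.20e-18) and B4GALT5 (-0.17, DESeq2 adjusted p = 9.77e-11) were also lower. B4GALT6 shrank to -0.181 with offsets for GC content and length and still passed, and B4GALT5 was -0.312 on log2(TPM + 1). SLC35A2, which carries UDP-galactose into the Golgi, was higher (0.36, DESeq2 adjusted p = 0.000147), a call that was lost in the 3 TPM settings (limma adjusted p = 0.0523 to 0.141). The other 3 tested genes of the list had at most 22.8 normalised counts and did not pass.

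Sialic acid supply had 7 genes, all tested, with 4 lower and none higher, beside 19.2% lower over all tested genes and 29.3% over the well-measured ones. CMAS, which activates sialic acid by joining it to CMP, had 1700, 1762 and 1653 normalised counts with GFP and 1411, 1425 and 1375 with T-MGM (log2 fold change -0.28, DESeq2 adjusted p = 3.14e-08). CASD1, which acetylates sialic acid, was lower by a similar amount (-0.33, DESeq2 adjusted p = 1.39e-05), as were NANP (-0.28, DESeq2 adjusted p = 0.000501) and GNE (-0.18, DESeq2 adjusted p = 0.00171), which act in sialic acid synthesis. NANP no longer passed with offsets for GC content and length (-0.135, adjusted p = 0.143). With these offsets CASD1 shrank to -0.187 and still passed, while CMAS (-0.441) and GNE (-0.303) were further below 0 on log2(TPM + 1). The groups did not overlap for any of these 4, as for 46.8% of all tested genes and 62.7% of the well-measured ones. NANS, SLC35A1 and SIAE did not pass.

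On the side of removal, 2 of 4 sialidases were tested and neither passed. NEU1, the lysosomal sialidase, had a log2 fold change of -0.08 (DESeq2 adjusted p = 0.140), and NEU3, which acts on gangliosides at the cell surface, had -0.02 (DESeq2 adjusted p = 0.864). NEU1 passed as lower under 5 alternatives, the TPM scale among them. All 8 genes of ganglioside breakdown were tested, and 4 were higher, beside 19.2% of all tested genes and 27% of the well-measured ones. GLB1, the lysosomal beta-galactosidase, had 1461, 1455 and 1513 normalised counts with GFP and 2028, 2085 and 2086 with T-MGM (log2 fold change 0.49, SE 0.04, DESeq2 adjusted p = 4.84e-26). Its groups were far apart, and on log2(TPM + 1) without a filter the difference was 0.22 (limma adjusted p = 0.0697). The other 3 that were higher differed by small amounts. CTSA (0.06, DESeq2 adjusted p = 0.00136) and PSAP (0.04, DESeq2 adjusted p = 0.0138) turned negative on the TPM scale, PSAP also with total-count scaling and with the offsets. GM2A was higher by 0.10 (DESeq2 adjusted p = 0.0364), but its groups overlapped. Its mean TPM was lower with T-MGM (13.3) than with GFP (13.8).

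Of the 3 genes that make or branch the O-linked core on which ST3GAL1 acts, 1 was lower and 1 higher. Over all tested genes 19.2% were lower and 19.2% higher. C1GALT1, the enzyme that makes this core, was lower (1886, 1725 and 1969 normalised counts against 1490, 1523 and 1435, log2 fold change -0.33, DESeq2 adjusted p = 1.53e-09), and shrank to -0.159 with offsets for GC content and length, where it still passed. Its chaperone C1GALT1C1 was higher (0.36, DESeq2 adjusted p = 0.00793), although its groups overlapped and the call was lost without the third GFP library (adjusted p = 0.104) or the first T-MGM library (adjusted p = 0.113), and in the 3 TPM settings (limma adjusted p = 0.27 to 0.513). GCNT1, which branches the core, had -0.00 (DESeq2 adjusted p = 0.99).

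The genes whose log2 normalised counts followed ST3GAL1 most closely over the 6 libraries were ABHD14B (Pearson r = 0.9996, log2 fold change 0.65), PCDH7 (r = 0.9996, 0.88), a protocadherin, and ALCAM (r = 0.9994, 3.80), a cell adhesion molecule. These are 6 libraries in 2 groups that share the group difference, and 398 of 11653 genes with a mean of at least 100 normalised counts had r of at least 0.99.

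**Figure D4:**
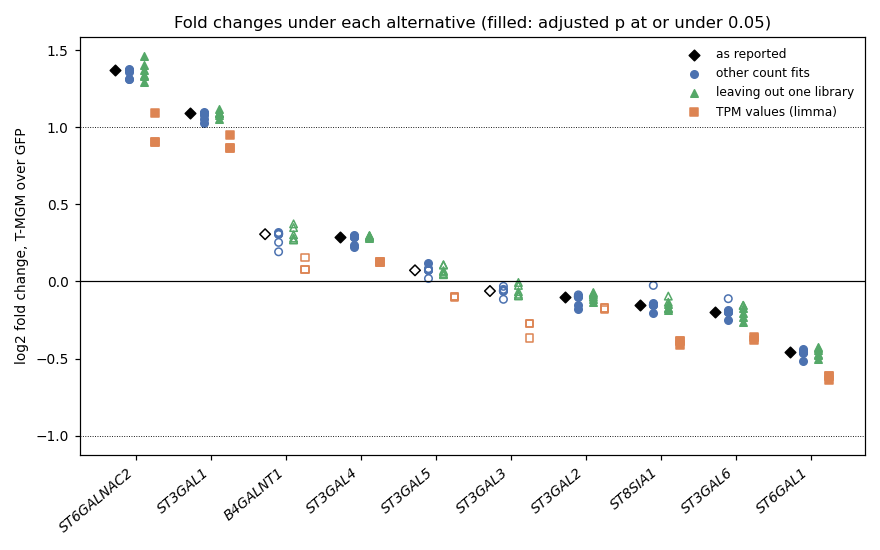
The log2 fold changes of the 10 genes (vertical axis) as reported and under each alternative, filled where the adjusted p was at or under 0.05. ST3GAL1, ST6GALNAC2, ST3GAL4 and ST6GAL1 are filled throughout, while ST3GAL2, ST3GAL6 and ST8SIA1 have open symbols and ST3GAL5 lies on both sides of 0.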

How the data were processed

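RNA was isolated from WM164 cells with a miRNeasy kit and sequenced in 6 libraries, 3 per group, grouped by the sample titles. The authors trimmed reads with cutadapt 1.8.1, aligned them to GRCh38 with STAR 2.7.7a and counted unique reads per gene with featureCounts, and the deposited counts are whole numbers that are not normalised. The authors also deposited TPM values, made with RSEM 1.3.0, which divide by transcript length and sum alike in each library. The submitters' notes also name DESeq2. The labels name a non-stranded kit and the study's methods a strand-specific kit. The annotation release is not given in the sources used here.

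Counts were tested with DESeq2 1.42.0 in R 4.3.3 (median-of-ratios size factors, the group as the only term, a 2-sided Wald test, independent filtering at 0.05, no shrinkage), with Benjamini-Hochberg adjustment over all tested genes. Normalised counts are counts divided by these size factors. A gene passed at an adjusted p at or under 0.05, with a log2 fold change over 1 where 2-fold is named. Floors of 3 counts (0.0506 to 0.0856 CPM) cover counting error only. Alternatives were edgeR 4.0.16 (quasi-likelihood test), other scalings and filters, a replicate block, leaving out each library, offsets for GC content and length, and limma 3.58.1 on log2(TPM + 1) or log2(TPM + 0.1) with a minimum of 0.5 TPM in 3 libraries, a scale that understates the change of low genes. The main DESeq2 fit, edgeR and limma on log2(TPM + 1) were tested on simulated data. The other alternatives and steps were not.

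The members and lists were chosen with earlier results of these data known. Named were all 10 members, up to 4 genes per list with the largest absolute Wald statistic (GM2A was added after its value was seen, to complete a count), the 3 genes most like ST3GAL1, neighbours past 2-fold (PHF20L1 and DCBLD2 were added after their values were seen), MAFG and MITF. Positions are from GENCODE 44 (GRCh38), in which 99.4% of the count table identifiers were found. Protein sequences were not used here, and 1 gene of the lists is not reported here.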

Additional observations from a re-analysis of the deposited data

How the results depend on the processing

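ST3GAL1, ST6GALNAC2, ST3GAL4 and ST6GAL1 kept their direction and passed the adjusted p under all 16 alternatives. The count of members past 2-fold was 2, but 0, 1 and 0 with limma on log2(TPM + 1), on log2(TPM + 0.1) and on log2(TPM + 1) without a filter. The same 3 settings gave 133, 369 and 126 genes past 2-fold over all genes instead of 885, with 70 higher and 63 lower, 204 and 165, and 66 and 60, instead of 624 and 261. Among the pathway genes they gave 1 higher and 12 lower, 1 and 12, and 0 and 11, instead of 7 and 9. The number of members past the adjusted p was 4 to 7 when 1 library was left out. In the same 3 TPM settings ST3GAL2 was -0.173, -0.182 and -0.173 and no longer passed, and ST3GAL5 was -0.0973, -0.104 and -0.0973. ST3GAL6 no longer passed at -0.362 without the TPM filter. ST3GAL2 no longer passed with TMM factors (-0.0875) or a minimum of 10 counts in 3 libraries (-0.0999). With GC and length offsets ST3GAL5 rose to 0.12 and passed, while ST3GAL6 (-0.112) and ST8SIA1 (-0.026) no longer passed. Leaving out 1 library gave -0.133 to -0.0724 for ST3GAL2, -0.26 to -0.155 for ST3GAL6 and -0.187 to -0.0953 for ST8SIA1. The ST3GAL1 share differed by 7.64 points per exon kilobase. The causes were not tested.

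The same-numbered libraries of the groups did not deviate together (r = -0.0067, -0.058 and 0.029 over 12654 genes), so the main fit did not pair them. These values cannot show whether same-numbered libraries were prepared together. A replicate block gave 735 genes past 2-fold and 5 members past the adjusted p, with ST3GAL2 (-0.0984, adjusted p = 0.116) and ST8SIA1 (-0.153, adjusted p = 0.0549) no longer passing, and 12 pathway genes instead of 16.

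Of the named pathway genes, 5 changed sign in some setting. PSAP was -0.0128 with total-count scaling, -0.025 with GC and length offsets and -0.0126 in the 3 TPM settings, where CTSA was -0.067, -0.0674 and -0.067. GCNT1 was 0.00645 with TMM factors, 0.129 with the offsets, 0.0547, 0.143 and 0.0547 in the TPM settings and -0.0546 to 0.0348 without 1 library. NEU3 was -0.0531 to 0.0255 without 1 library, and ST6GALNAC3 was -0.0554 on TPM without a filter. Differences as small as these are not resolved at this depth and number of libraries.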

Other observations

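The enzymes that start O-linked chains were read from a list of 20 GALNT genes added after the data were seen. Of these 14 were tested, 4 were higher and 3 lower at a DESeq2 adjusted p of 0.05, and 7 did not pass, beside 19.2% higher and 19.2% lower over all tested genes. Past 2-fold higher were 2, beside 3.26% of all tested genes. The largest difference was at GALNT18, which had 0, 3 and 3 reads with GFP and 95, 114 and 148 in those labelled T-MGM. From summed reads of 6 and 357, scaled by the size factors, the ratio was 45.1 (95% exact counting interval 20.5 to 124, which covers counting error only). GALNT14 was also past 2-fold higher at low levels, with 1.20, 2.17 and 9.14 normalised counts against 26.5, 6.83 and 28.8, and its groups overlapped. The abundant members differed little: GALNT7 (log2 fold change 0.38) and GALNT10 (0.21) were higher, and GALNT1 (-0.19) and GALNT2 (-0.19) were lower, as was GALNT3 (-0.37), which was less abundant.

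The fucosyltransferases that make Lewis structures were read from a list of 6 genes, also added after the data were seen. FUT4 alone was tested, with 507, 531 and 649 normalised counts with GFP and 502, 520 and 495 with T-MGM (log2 fold change -0.15, DESeq2 adjusted p = 0.205). FUT3, FUT5, FUT6, FUT7 and FUT9 had at most 3.43 normalised counts in any library.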
